A study of Arabidopsis with 24 samples.

Results

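The 33 xyloglucan endotransglucosylase/hydrolase (XTH) genes of Arabidopsis were examined across 4 genotypes and 2 light conditions. They were chosen from the 32833 genes of the deposited table as those named XTH with a number or described as a xyloglucan endotransglucosylase, together with the loci of TCH4, XTH24 and XTH4. The name found 32 of them, the description found all 33, and no gene entered through its locus alone. TCH4 is the usual name of XTH22 and is used here. Of the 33 members, 29 had a mean of at least 0.5 FPKM (fragments scaled by transcript length and library size) over all libraries and were tested. XTH1 was listed at 0 in all 24 libraries, and XTH2, XTH3 and XTH29 had no value above 0.26 FPKM, so these 4 members were not tested.

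Xyloglucan is a branched glucan that coats and tethers cellulose microfibrils in the growing wall. XTH enzymes cut a xyloglucan chain and join the new end to another chain, or to water in the case of the few hydrolases, and they thereby loosen, rebuild or strengthen the wall. Petioles and hypocotyls elongate when the ratio of red to far-red light (R:FR) falls, and XTH genes are among the wall genes known to be induced by shade, auxin and brassinosteroid.

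Whole seedlings were grown for 6 days in white light (WL) and were then kept in WL or moved to low R:FR (R:FR 0.3) for 6 h. The genotypes, all in the Columbia background, were the wild type Col-0, dvl1-1D, bsk36 and pif47, with 3 replicates in every one of the 8 groups. dvl1-1D is a single activation-tagged line that overexpresses RTFL18, a small peptide of the RTFL/DVL family, while bsk36 carries T-DNA insertions in the brassinosteroid signaling kinases BSK3 and BSK6. pif47 lacks the transcription factors PIF4 and PIF7. The sources used here do not say whether replicates were separate growths, so p-values measure the spread between these samples, which may be technical.

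Transcripts of the altered genes were as labelled. RTFL18 was at 516.81 to 975.03 FPKM in dvl1-1D and at most 12.91 in Col-0. BSK3 was at most 0.03 FPKM in bsk36, while BSK6 remained at 0.3 to 0.75 FPKM there, against 9.49 to 16.47 in Col-0. PIF7 was at most 1.34 FPKM in pif47 against at least 9.83 in Col-0. PIF4 was lower but present in pif47, at 1.64 to 2.34 FPKM in WL and 7.67 to 8.05 in low R:FR, against 6.68 to 7.46 and 22.14 to 26.5 in Col-0. Shoot and root transcripts were both present, and the summed FPKM of 13 root markers (root hair, endodermis and root cap) lay between 77.2 and 176.6 in every library. Libraries of 1 group differed in this sum. Col-0 low R:FR replicate 1 was the lowest of its group for all 13 root markers, bsk36 low R:FR replicate 1 was the highest of its group for all 13, and bsk36 low R:FR replicate 3 was the lowest for all 13. The FPKM of a library summed to 758368 to 801109, and the number of reads behind a value is unknown.

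XTH4, a member linked to secondary growth of the stem, was the most abundant member by FPKM, which is scaled by transcript length. It had a mean of 596.2 FPKM over all libraries and made up about 27% to 45% of the summed FPKM of the family. XTH7 (192.6), XTH24 (133.5), XTH6 (120.3) and XTH9 (103.2) followed by mean FPKM. Another 13 members had a mean from 10 to 100 FPKM, and 11 had a mean from 0.5 to 10 FPKM. The summed FPKM of the 33 genes in Col-0 was 1362 to 1497 per WL library and 1881 to 2099 per low R:FR library. In dvl1-1D this sum was 1429 to 1514 (WL) and 1825 to 2055 (low R:FR). The bsk36 libraries had 1393.7 to 1394.2 (WL) and 1774 to 2239 (low R:FR), and the pif47 libraries had 1218 to 1270 (WL) and 1551 to 1693 (low R:FR). In every genotype the WL and low R:FR libraries did not overlap in this sum, and the sum was lowest in pif47 in either light.

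The first question was which XTH genes respond to 6 h of low R:FR. In Col-0, 9 of the 29 tested members rose and 2 fell at the thresholds of the study (a log2 fold change of at least 1 in either direction and P of at most 0.01), where 2.16% of all 20682 tested genes rose and 1.32% fell. The members that rose were TCH4, XTH8, XTH13, XTH15, XTH17, XTH19, XTH24, XTH26 and XTH33, and those that fell were XTH20 and XTH31. Every fold change is a difference of mean log2(FPKM + 0.1), which understates changes of genes with low values. At an adjusted p under 0.05 with no minimum fold change, 19 members rose and 6 fell, where 36.7% of all tested genes passed in either direction. The median log2 fold change was 0.57 over the tested members and 0.06 over all tested genes. It was 0.37 for XTH1 to XTH11, 1.07 for XTH12 to XTH26 and -0.10 for XTH27 to XTH33, and 7 of the 9 members that rose were among the 15 members XTH12 to XTH26.

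In dvl1-1D, 5 members rose (XTH8, XTH15, XTH17, XTH19 and XTH33) and 0 fell, against 1.32% and 0.45% of all tested genes, and limma gave 13 members with an unadjusted p under 0.05 in either direction, where 30.1% of all tested genes had one. In bsk36, 5 members rose (TCH4, XTH8, XTH15, XTH17 and XTH33) and XTH31 fell, against 1.3% and 0.701%. In pif47, 4 members rose (XTH15, XTH24, XTH25 and XTH33) and XTH31 fell, against 0.701% and 0.392%. At an adjusted p under 0.05 with no minimum fold change, 9 members rose and 3 fell in dvl1-1D (19% of all tested genes in either direction), 10 rose and 4 fell in bsk36 (17.3%), and 13 rose and 3 fell in pif47 (18.3%). XTH15 and XTH33 rose by the thresholds of the study in all 4 genotypes. In pif47, XTH33 missed the minimum fold change with a pseudocount of 1 (log2 fold change 0.79), and XTH15 missed it without pif47 low R:FR replicate 2 (0.96). The 4 contrasts share no libraries, but they share the estimate of the spread.

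**Figure D1:**
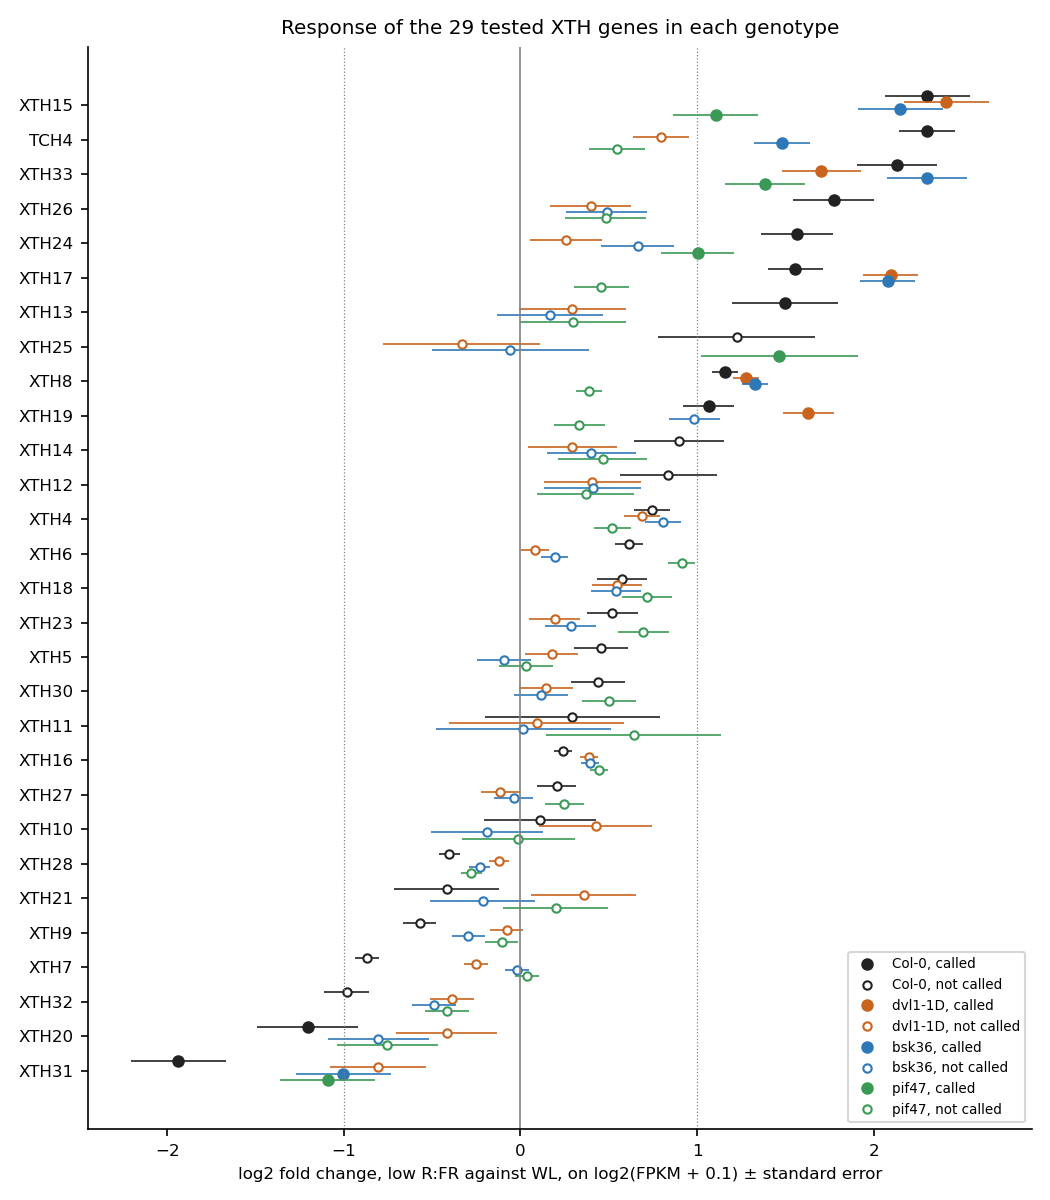
Log2 fold change in low R:FR against WL (horizontal axis, on log2(FPKM + 0.1), ± standard error of the fit) of the 29 tested XTH genes, ordered by Col-0, in the 4 genotypes with 3 libraries a group. Filled points pass a log2 fold change of at least 1 in either direction (dotted lines) and P of at most 0.01; XTH15 and XTH33 are filled in all 4 genotypes, and XTH31 is the lowest member in each.

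Each mutant was also compared with Col-0 in the size of its response, by the interaction of genotype with light at an adjusted p under 0.05. In dvl1-1D, 5 members differed from Col-0 (2.34% of all tested genes did): the log2 response was higher for XTH7 and lower for TCH4, XTH26, XTH24 and XTH6. In bsk36, 3 members differed (3.03%), with a higher value for XTH7 and lower values for XTH26 and XTH6. In pif47, 5 members differed (2.44%), with a higher value for XTH7 and lower values for TCH4, XTH26, XTH17 and XTH8. At an unadjusted P of at most 0.01 the members numbered 9, 6 and 10 for dvl1-1D, bsk36 and pif47, where 7.67%, 8.32% and 6.14% of all tested genes passed. The 3 interactions share the 6 Col-0 libraries, so they are given side by side and were not compared as lists. Without Col-0 low R:FR replicate 3 the counts were 8, 5 and 8, and without Col-0 low R:FR replicate 2 they were 3, 1 and 4.

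**Figure D2:**
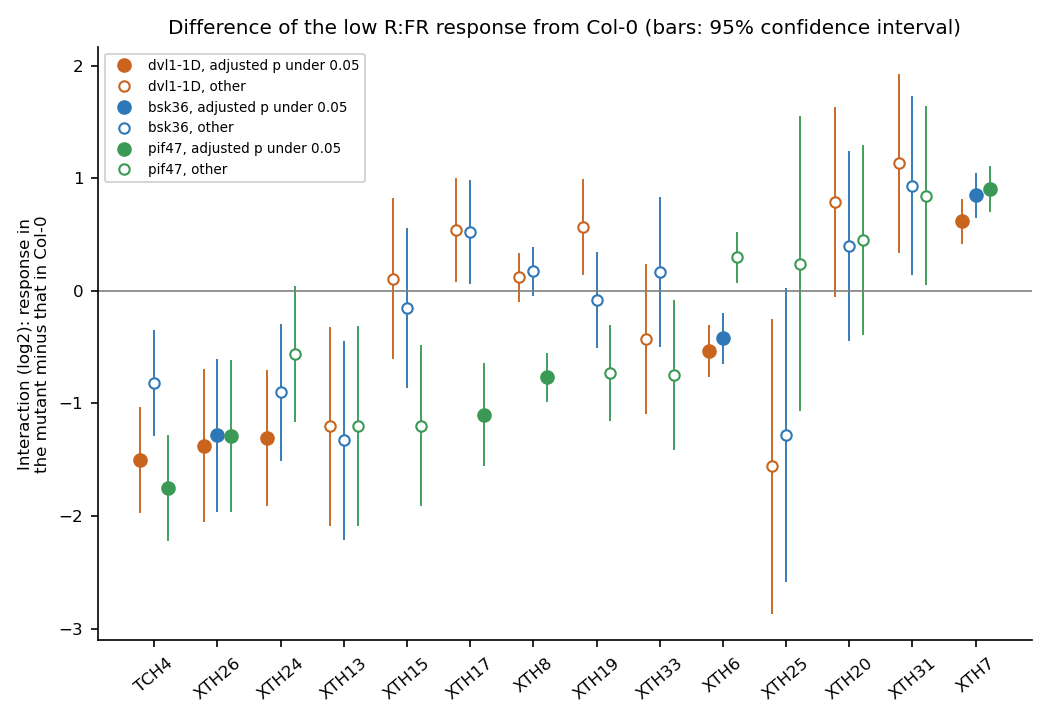
Difference between the low R:FR response in a mutant and that in Col-0 (vertical axis, log2, with the 95% confidence interval of the fit) for the 14 XTH genes called in at least 1 light contrast or 1 interaction. Filled points have an adjusted p under 0.05; XTH7 lies above 0 in all 3 mutants (0.62, 0.85 and 0.90) and XTH26 lies below 0 in all 3 (-1.38, -1.28 and -1.29).

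Among XTH1 to XTH11, XTH4 had 453.92, 544.07 and 539.61 FPKM in the Col-0 libraries in WL and 824, 944.89 and 806.82 in low R:FR. It rose by adjusted p (log2 fold change 0.75, standard error 0.10, adjusted p = 1.18e-05) but not by the minimum fold change. Its log2 fold change was 0.69 (dvl1-1D), 0.81 (bsk36) and 0.52 (pif47), all with an adjusted p of at most 0.00129. In pif47 the values were 344.24, 329.01 and 395.34 FPKM in WL and 482.05, 483.39 and 566.05 in low R:FR. In each light these lay below every Col-0 library, with a log2 difference of -0.52 in WL (adjusted p = 0.00752) and -0.75 in low R:FR (adjusted p = 4.03e-05).

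XTH6 had 88.54, 92.93 and 83.12 FPKM in Col-0 kept in WL and 144.04, 128.01 and 133.33 in low R:FR, a log2 fold change of 0.61 (standard error 0.08, adjusted p = 3.66e-06). In dvl1-1D its values were 107.89, 107.47 and 102.58 FPKM in WL and 115.14, 109.92 and 111.35 in low R:FR, a log2 fold change of 0.08 and an interaction of -0.53 (standard error 0.11, adjusted p = 0.0167). The dvl1-1D values sat between those of Col-0 in the 2 lights. In bsk36 the WL values were 149.2, 139.12 and 135.7 FPKM, above every Col-0 library in WL (log2 difference 0.68, adjusted p = 2.34e-05), and the low R:FR values were 138.73, 167.97 and 180.72. The bsk36 interaction was -0.42 (adjusted p = 0.0399) and was lost without any 1 of 9 of the 12 libraries, with adjusted p of 0.0535 to 0.0930; it remained below 0.05 only without Col-0 WL replicate 2, Col-0 low R:FR replicate 3 or bsk36 low R:FR replicate 3. It was also lost with no filter on low values (adjusted p = 0.0515), with either other scaling, with the replicate block (adjusted p = 0.0507) and with only the groups compared in the fit. In pif47 XTH6 had 74.91, 74.88 and 76.09 FPKM in WL and 155.23, 129.88 and 141.55 in low R:FR, and its log2 fold change of 0.91 was the largest of the 4 genotypes in value, although its interaction with Col-0 did not pass the test.

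XTH7 moved the other way. It had 240.91, 263.79 and 271.55 FPKM in Col-0 kept in WL and 145.93, 129.07 and 150.65 in low R:FR, and it fell by adjusted p (log2 fold change -0.87, standard error 0.07, adjusted p = 8.39e-09). In bsk36 it had 169.28, 177.95 and 157.6 FPKM in WL and 157.42, 165.5 and 174.27 in low R:FR, so the groups overlapped. In pif47 the values were 211.41, 200.01 and 201.95 FPKM in WL and 203.47, 203.86 and 221.74 in low R:FR, which also overlapped. The fall was smaller in dvl1-1D, from 235.17, 199.36 and 205.39 FPKM to 180.32, 180.02 and 175.51 (log2 fold change -0.25, adjusted p = 0.0127). The interaction was 0.62 in dvl1-1D (adjusted p = 0.00350), 0.85 in bsk36 (adjusted p = 0.000564) and 0.90 in pif47 (adjusted p = 1.18e-05), and in no fit that left out 1 library did it lose the call. The WL level of XTH7 was lower than in Col-0 in each mutant (log2 difference -0.28, -0.62 and -0.34 for dvl1-1D, bsk36 and pif47, all with an adjusted p of at most 0.0228).

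XTH8 had 31.74, 30.55 and 33.42 FPKM in Col-0 kept in WL and 68.22, 69.43 and 76.08 in low R:FR, a log2 fold change of 1.16 (standard error 0.07, adjusted p = 3.98e-10). Its log2 fold change was 1.28 in dvl1-1D (21.78, 25.07 and 22.14 to 55.53, 59.22 and 52.55 FPKM) and 1.33 in bsk36 (24.95, 23.15 and 25.17 to 62.18, 58.54 and 63.57 FPKM). These responses did not differ from that of Col-0 by the interaction, whose 95% confidence interval ran from -0.10 to 0.34 in dvl1-1D and from -0.04 to 0.39 in bsk36. In pif47 XTH8 went from 25.3, 23.39 and 27.9 FPKM to 35.28, 30.88 and 34.03, a log2 fold change of 0.39 and an interaction of -0.77 (standard error 0.10, adjusted p = 0.000207). The low R:FR libraries of pif47 reached about the level of Col-0 in WL and lay below all other low R:FR libraries.

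XTH9, the other member of this group linked to stem tissue, had 127.65, 106.54 and 102.7 FPKM in Col-0 kept in WL and 79, 62.72 and 86.15 in low R:FR. It fell by adjusted p in Col-0 (log2 fold change -0.57, adjusted p = 8.09e-05) and bsk36 (-0.29, adjusted p = 0.0341), while its log2 fold change was -0.08 in dvl1-1D and -0.11 in pif47. The interaction did not pass the test in any mutant (adjusted p of 0.0534, 0.261 and 0.0710 in dvl1-1D, bsk36 and pif47; 0.0419 in dvl1-1D over genes that averaged at least 5 FPKM), although the low R:FR level was higher than in Col-0 in dvl1-1D (log2 difference 0.48, adjusted p = 0.00294) and pif47 (0.55, adjusted p = 0.000383). XTH5 rose by adjusted p in Col-0 (log2 fold change 0.46, adjusted p = 0.0224), and XTH10 and XTH11, with means of 1.11 and 0.678 FPKM, passed no light contrast.

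Among XTH12 to XTH26, XTH15, TCH4, XTH26, XTH24 and XTH17 had the largest log2 fold changes in Col-0, in this order. TCH4, a gene first known from its response to touch and also induced by auxin and brassinosteroid, had 11.71, 11.35 and 14.08 FPKM in Col-0 kept in WL and 60.79, 73.45 and 51.22 in low R:FR. Its log2 fold change of 2.30 (standard error 0.16, adjusted p = 1.38e-09) was, with that of XTH15, the largest of the tested members in Col-0. In bsk36 it went from 15.48, 13.79 and 14.27 FPKM to 30.68, 41.4 and 52.79, a log2 fold change of 1.48. The interaction in bsk36 was -0.82 and did not pass (95% confidence interval -1.29 to -0.35, adjusted p = 0.0508), although it did over the genes that averaged at least 5 FPKM (adjusted p = 0.0354). In pif47 TCH4 had 10.43, 9.04 and 10.52 FPKM in WL and 12.81, 13.92 and 17.52 in low R:FR, a log2 fold change of 0.55 with an interaction of -1.75 (standard error 0.23, adjusted p = 0.000112). In dvl1-1D its WL values of 23.85, 19.11 and 20.46 FPKM lay above every Col-0 library in WL (log2 difference 0.77, adjusted p = 0.00800), and its low R:FR values of 35.01, 39.45 and 35.57 lay below every Col-0 library in low R:FR (log2 difference -0.74, adjusted p = 0.00600). Both ends thus moved toward each other in this line, and the interaction of -1.51 (adjusted p = 0.00267) held without any 1 library. The other genes named for touch, TCH1, TCH2 and TCH3, which encode calmodulin or calmodulin-like proteins, were examined beside it. None of the 3 passed the minimum fold change in any genotype, and TCH2 alone passed by adjusted p, in bsk36 (log2 fold change 0.42). By limma 1 of the 3 had an unadjusted p under 0.05 in Col-0, where 45% of all tested genes had one, and their median log2 fold change in Col-0 was 0.08. Against Col-0 in low R:FR, 2 of the 3 were lower in pif47 by adjusted p, where 13.5% of all tested genes passed in either direction. In dvl1-1D and bsk36, 0 of the 3 differed in this comparison (9.4% and 1.44%). Against Col-0 in WL, 1 of the 3 was lower by adjusted p in bsk36 (18.6%), 1 in pif47 (3.65%) and 0 in dvl1-1D (4.63%). The mean of TCH2 was 30.57 FPKM in WL and 41.05 in low R:FR in bsk36, against 38.89 and 41.10 in Col-0. Its rise in bsk36 thus started from a lower WL mean and reached about the low R:FR mean of Col-0.

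XTH15 had 13.09, 11.18 and 14.6 FPKM in Col-0 kept in WL and 71.23, 79.07 and 46.33 in low R:FR, a log2 fold change of 2.30 (standard error 0.24, adjusted p = 3.69e-07). In dvl1-1D it went from 11.75, 12.32 and 14.46 FPKM to 66.17, 69.42 and 69.83, a log2 fold change of 2.41. In bsk36 it went from 14.05, 12.26 and 15.7 FPKM to 40.75, 62.74 and 94.08, a log2 fold change of 2.15. The WL libraries of the 4 genotypes overlapped, and XTH15 differed widely between the bsk36 libraries in low R:FR. Among these 3, the lowest was the library with the highest root markers and the highest was the one with the lowest root markers. The other low R:FR groups did not show this order. In dvl1-1D and pif47 XTH15 was lowest in replicate 1, which had the lowest root marker sum (93.8 and 117.0 FPKM). In Col-0 it was highest in replicate 2, which had the highest sum (144.4 FPKM). The part of root transcripts in the result was not tested. In pif47 XTH15 went from 11.58, 11.35 and 15.99 FPKM to 20.27, 33.65 and 31.03, a log2 fold change of 1.10 that fell to 0.96 without pif47 low R:FR replicate 2. Its low R:FR level in pif47 was lower than in Col-0 (log2 difference -1.20, adjusted p = 0.00183; -0.98 without pif47 low R:FR replicate 1), but its interaction did not pass (-1.20, adjusted p = 0.0707).

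XTH17 had 9.37, 13.11 and 14.85 FPKM in Col-0 kept in WL and 33.38, 39.83 and 35.46 in low R:FR, a log2 fold change of 1.56 (standard error 0.16, adjusted p = 1.89e-07). The log2 fold change was 2.095 in dvl1-1D (8.53, 10.59 and 8.75 to 39.09, 47.88 and 33.76 FPKM) and 2.08 in bsk36 (7.9, 9.06 and 9.76 to 36.74, 34.25 and 42.88 FPKM). Both exceeded that of Col-0 in value, and neither interaction passed (0.54, 95% confidence interval 0.08 to 1.00, adjusted p = 0.190 in dvl1-1D and 0.52, 0.06 to 0.98, adjusted p = 0.194 in bsk36). In pif47 XTH17 had 11.21, 14.44 and 13.28 FPKM in WL and 15.55, 18.26 and 19.7 in low R:FR, a log2 fold change of 0.46 and an interaction of -1.10 (standard error 0.22, adjusted p = 0.00772). Its low R:FR level in pif47 was 1.02 below that of Col-0 on the log2 scale, a log2 difference of -0.95 without Col-0 low R:FR replicate 2 and -0.93 without pif47 low R:FR replicate 1, and -0.99 with a pseudocount of 1, so that the minimum fold change was then missed.

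XTH18, XTH19 and XTH20 are close relatives of XTH17, so fragments may have been split or shared among them, and the level of each is uncertain to that extent. XTH19 had 9.6, 10.49 and 11.06 FPKM in Col-0 kept in WL and 19.34, 21.33 and 25.1 in low R:FR, a log2 fold change of 1.06 that was 0.96 without Col-0 low R:FR replicate 3 and 0.98 with quantile normalization. Its largest rise in value was in dvl1-1D, from 8.32, 9.28 and 9.25 FPKM to 27.79, 30.89 and 25.21 (log2 fold change 1.63, adjusted p = 7.63e-08), where every low R:FR library was above every other library of the gene except bsk36 low R:FR replicate 1. That library had 25.94 FPKM, against 18.52 and 16.2 in the other low R:FR libraries of bsk36 and 9.1, 9.7 and 11.22 in WL. In pif47 XTH19 had 12.28, 11.73 and 14.33 FPKM in WL and 13.97, 18.85 and 15.74 in low R:FR, which overlapped. No interaction passed for XTH19 (0.56 in dvl1-1D, adjusted p = 0.142; -0.73 in pif47, adjusted p = 0.0646), but with median ratio scaling that of pif47 did (-0.70, adjusted p = 0.0465). XTH18 rose by adjusted p in all 4 genotypes, with log2 fold changes of 0.57, 0.55, 0.54 and 0.72 for Col-0, dvl1-1D, bsk36 and pif47, respectively.

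XTH20 was the member of this group that fell. It had 13.73, 12.52 and 12.87 FPKM in Col-0 kept in WL and 3.92, 5 and 8.91 in low R:FR, a log2 fold change of -1.21 (standard error 0.29, adjusted p = 0.00239; -0.95 without Col-0 low R:FR replicate 1). In dvl1-1D it had 8.36, 6.42 and 7.75 FPKM in WL and 6.15, 5.74 and 4.89 in low R:FR, and in pif47 10.07, 11.47 and 7.32 against 6.32, 6 and 4.56. In bsk36 the low R:FR values were 10.22, 4.58 and 3.84 FPKM against 11.6, 9.12 and 9.31 in WL. The high value was in the library with the highest root markers. In dvl1-1D and pif47 the highest low R:FR value was in the library with the lowest root marker sum (93.8 and 117.0 FPKM). In Col-0 it was in the library with the middle sum (127.4 FPKM). In none of the mutants did the log2 fold change pass (-0.42, -0.81 and -0.75 for dvl1-1D, bsk36 and pif47), nor did any interaction.

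**Figure D3:**
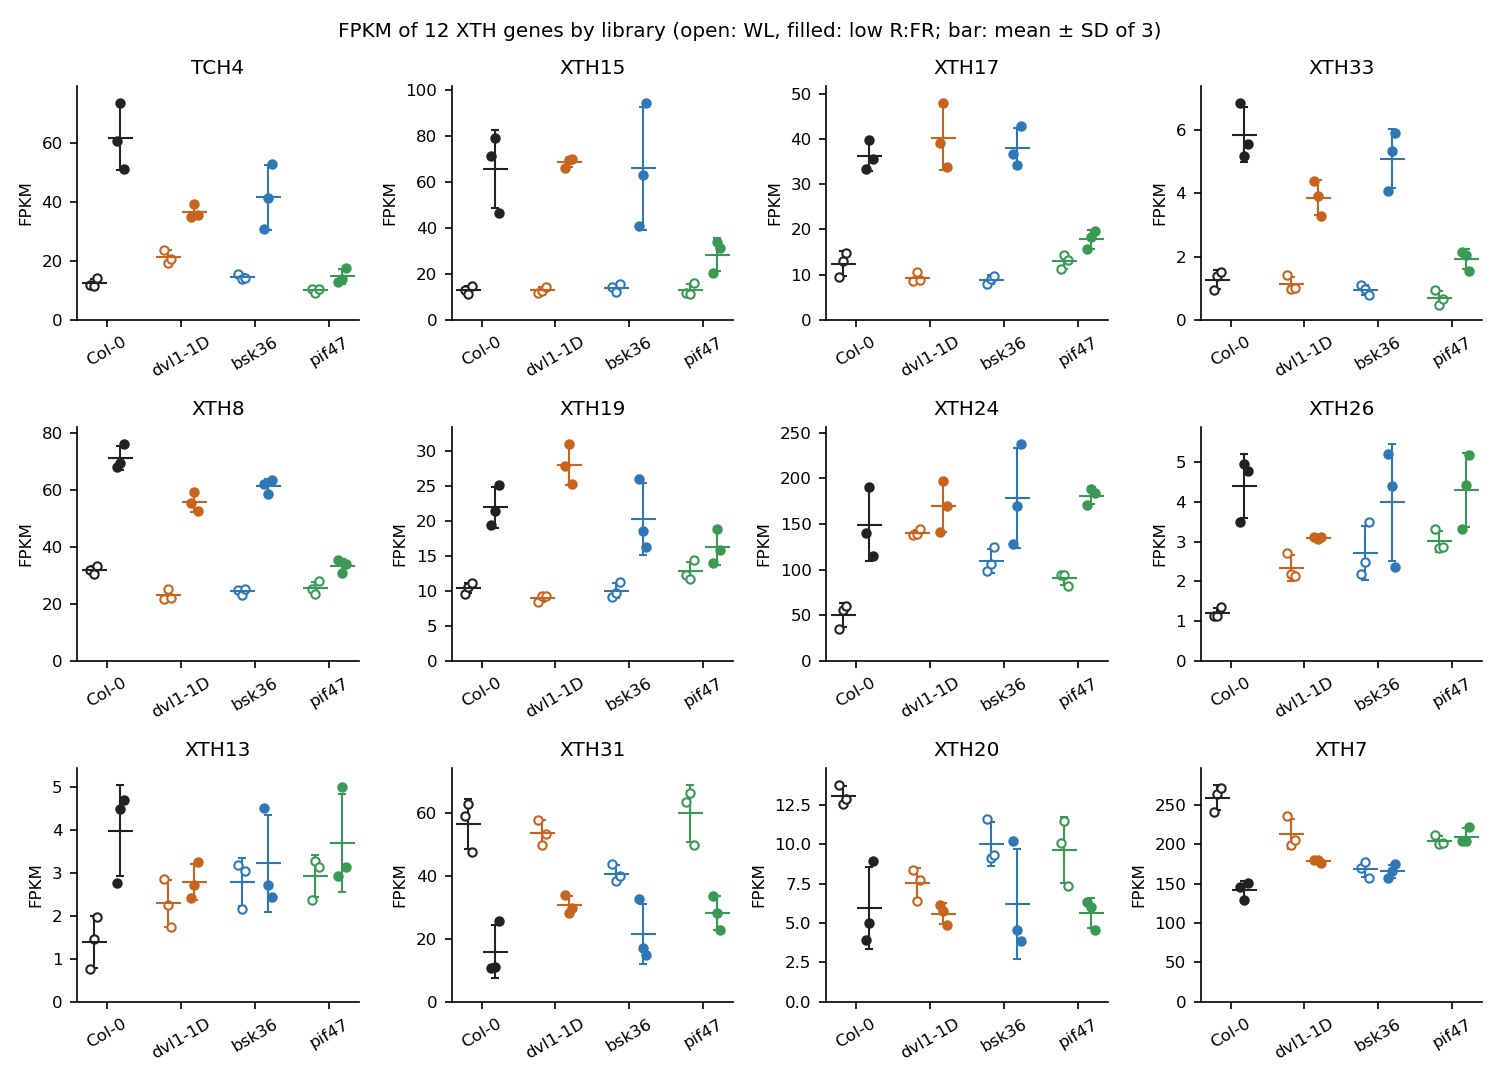
FPKM of 12 XTH genes (vertical axes, each starting at 0) in every library of the 4 genotypes, with WL as open points, low R:FR as filled points and the mean ± SD of 3 libraries as bars. XTH15 and XTH17 reached similar low R:FR levels in Col-0, dvl1-1D and bsk36 and lower ones in pif47, while TCH4 was highest in Col-0 in low R:FR and XTH24 was lowest in Col-0 in WL.

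XTH24, also known as MERI5, had 35.23, 55.73 and 60.07 FPKM in Col-0 kept in WL and 140.58, 190.72 and 114.44 in low R:FR, a log2 fold change of 1.57 (standard error 0.20, adjusted p = 5.94e-06). In dvl1-1D it had 137.53, 139.41 and 144.21 FPKM already in WL, and 141.49, 197.5 and 169.21 in low R:FR. The WL level was thus higher than in Col-0 (log2 difference 1.52, adjusted p = 0.000139), every dvl1-1D library in WL was more than 2-fold above every Col-0 library in WL, and the low R:FR level did not differ by the test (log2 difference 0.21, adjusted p = 0.579). In bsk36 XTH24 had 98.65, 105.96 and 124.47 FPKM in WL and 128.18, 169.76 and 237.3 in low R:FR, with a WL difference from Col-0 of 1.15 (0.91 without Col-0 WL replicate 1). In pif47 it had 94.57, 94.4 and 82.3 FPKM in WL and 170.46, 188.38 and 184.36 in low R:FR, a log2 fold change of 1.00 that dropped below 1 without pif47 WL replicate 3 (0.94), pif47 low R:FR replicate 2 (0.97) or pif47 low R:FR replicate 3 (0.99), and with either other pseudocount or median ratio scaling (0.99 to 1.00). The WL difference in pif47 was 0.88 (adjusted p = 0.0222). The interaction passed in dvl1-1D alone of the 3 mutants (-1.31, adjusted p = 0.0252), and it was lost, with adjusted p of 0.0567 to 0.0831, without Col-0 WL replicate 1, Col-0 low R:FR replicate 2, dvl1-1D WL replicate 2 or 3, or dvl1-1D low R:FR replicate 1 or 3. With only the groups compared in the fit it was lost as well (adjusted p = 0.0882).

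XTH12, XTH13, XTH14 and XTH26 are known mainly from roots and root hairs. XTH12, XTH13 and XTH14 have similar sequences, so their fragments may not have been fully told apart. XTH26 had 1.14, 1.13 and 1.36 FPKM in Col-0 kept in WL and 3.49, 4.96 and 4.79 in low R:FR, a log2 fold change of 1.77 (standard error 0.23, adjusted p = 5.14e-06). In WL the mutants were higher than Col-0, with 2.72, 2.18 and 2.13 FPKM in dvl1-1D (log2 difference 0.90, adjusted p = 0.0289), 2.19, 2.49 and 3.49 in bsk36 (1.09, adjusted p = 0.00346; 0.90 without bsk36 WL replicate 3) and 3.32, 2.85 and 2.86 in pif47 (1.25, adjusted p = 0.00416). With a pseudocount of 1 the WL differences of bsk36 and pif47 were 0.74 and 0.86, under the minimum fold change. None of these 9 libraries overlapped with the Col-0 libraries in WL. The low R:FR values were 3.11, 3.06 and 3.13 FPKM for dvl1-1D, 5.2, 4.41 and 2.36 for bsk36 and 3.32, 4.42 and 5.18 for pif47, and the response did not pass in any mutant (log2 fold change 0.40, 0.49 and 0.48). The interaction of XTH26 passed in all 3 mutants by a small margin (-1.38, -1.28 and -1.29, adjusted p of 0.0330, 0.0361 and 0.0367). It was lost without any 1 of 8, 8 and 9 of the 12 libraries in dvl1-1D, bsk36 and pif47, with adjusted p of 0.0569 to 0.0982, 0.0503 to 0.102 and 0.0551 to 0.106. The call held only without Col-0 WL replicate 2 or 3 or Col-0 low R:FR replicate 1 or 3 in dvl1-1D, without Col-0 WL replicate 3, Col-0 low R:FR replicate 1 or replicate 1 of bsk36 in either light, and without Col-0 WL replicate 3, Col-0 low R:FR replicate 1 or pif47 low R:FR replicate 3. It was also lost with a pseudocount of 1 in bsk36 (-0.89, adjusted p = 0.0598) and pif47 (-0.89, adjusted p = 0.0699), with a pseudocount of 0.5 in pif47 (adjusted p = 0.0529), with no filter on low values in both (adjusted p of 0.0515 and 0.0558), with the replicate block in pif47 (adjusted p = 0.0563), and with only the groups compared in bsk36 (adjusted p = 0.164).

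XTH13 had 0.77, 1.45 and 1.97 FPKM in Col-0 kept in WL and 2.77, 4.48 and 4.69 in low R:FR, a log2 fold change of 1.498 (standard error 0.30, adjusted p = 0.000576). Its WL values were 2.85, 2.26 and 1.75 FPKM for dvl1-1D, 3.18, 2.15 and 3.03 for bsk36 and 2.36, 3.27 and 3.13 for pif47. The WL difference from Col-0 was 1.02 in bsk36, and it was 0.67 to 0.95 without Col-0 WL replicate 1 or bsk36 WL replicate 1 or 3 (adjusted p of 0.0783 to 0.169). It was 1.09 in pif47 (adjusted p = 0.0486), and 0.74 without Col-0 WL replicate 1 (adjusted p = 0.233). Both WL differences missed the thresholds of the study with either other pseudocount, with quantile normalization and with only the groups compared in the fit, and that of bsk36 also with median ratio scaling. The low R:FR values were 2.42, 2.71 and 3.25 FPKM for dvl1-1D, 4.5, 2.71 and 2.44 for bsk36 and 2.92, 4.99 and 3.14 for pif47, so that each mutant overlapped between the 2 lights. XTH14 and XTH12 rose by adjusted p in Col-0 (log2 fold change 0.90, adjusted p = 0.00838, and 0.84, adjusted p = 0.0215) and in no mutant, and no interaction passed for XTH12, XTH13 or XTH14.

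Within most groups, root hair markers, endodermis markers and these 4 members placed the libraries in the same order. The summed FPKM of XTH12, XTH13, XTH14 and XTH26 in Col-0 was 10.6, 16.78 and 22.09 per WL library and 25.29, 41.99 and 33.44 per low R:FR library. The summed FPKM of 6 root hair markers in the same libraries was 26.21, 31.86 and 40.63 in WL and 42.88, 64.37 and 52.54 in low R:FR, and both sums placed the 3 libraries of either group in the same order. In bsk36 in low R:FR the sums were 41.08, 33.02 and 21.14 for the XTH genes and 74.79, 64.34 and 41.64 for the root hair markers. The order was also shared in bsk36 in WL (23.57, 19.46 and 27.7 against 47.48, 37.47 and 52.36). In low R:FR it was shared in dvl1-1D (25.74, 27.25 and 26.5 against 41.03, 45.73 and 45.68) and pif47 (25.8, 37.02 and 36.09 against 53.35, 82.17 and 65.17). The order was not shared in WL in dvl1-1D (23.41, 19.74 and 20.68 against 42.02, 40.41 and 44.34) or in pif47 (23.63, 22.74 and 25.47 against 45, 49.51 and 51.99). The summed FPKM of 6 endodermis markers shared the order of the XTH genes in the same groups as the root hair markers. It was 46.7, 78.47 and 73.44 in Col-0 and 76.85, 53.14 and 42.99 in bsk36, both in low R:FR. The shared order was thus not particular to root hair markers. Of the 6 root hair markers, 3 rose and 0 fell in Col-0 by adjusted p, and none passed the minimum fold change. Limma gave 4 with an unadjusted p under 0.05. Over all tested genes 36.7% passed by adjusted p in either direction and 45% had such an unadjusted p. The count of 3 was thus near the background. The median log2 fold change of the 6 markers in Col-0 was 0.62, against 0.06 over all tested genes. In the mutants their median was -0.01 (dvl1-1D), 0.27 (bsk36) and 0.41 (pif47). The part of root or root hair transcripts in the XTH results was not tested. In these whole seedlings, more root hair cells and more RNA per cell cannot be told apart. The 6 endodermis markers had a median log2 fold change of 0.02 in Col-0, where CASP5 was the only one that rose (1.01), and a summed FPKM of 46.7 to 78.5 in low R:FR and 49.7 to 64.0 in WL, which overlapped.

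The remaining members of this group had smaller or noisier responses. XTH25 had 0.41, 0.36 and 0.76 FPKM in pif47 in WL and 0.99, 1.69 and 2.07 in low R:FR, a log2 fold change of 1.46 (adjusted p = 0.0255; 0.76 with a pseudocount of 1). The call was lost, with adjusted p of 0.0766 to 0.114, without pif47 WL replicate 1 or 2 or pif47 low R:FR replicate 2 or 3. In Col-0 it went from 0.38, 0.42 and 1.21 FPKM to 0.96, 2.47 and 1.43 (log2 fold change 1.22, adjusted p = 0.0359, which missed P of at most 0.01), in dvl1-1D from 1.85, 1.31 and 0.86 to 1.2, 1.14 and 0.72, and in bsk36 from 1.16, 0.7 and 1.06 to 0.51, 0.92 and 1.57. XTH16 rose by adjusted p in all 4 genotypes, by 0.24, 0.39, 0.39 and 0.44 on the log2 scale for Col-0, dvl1-1D, bsk36 and pif47, respectively. XTH23 rose by adjusted p in Col-0 (log2 fold change 0.52) and pif47 (0.69), and XTH21 passed no light contrast.

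Among XTH27 to XTH33, XTH33 and XTH31 were the members called. XTH33, whose protein is predicted to be anchored in the plasma membrane, was scarce and had 0.93, 1.39 and 1.5 FPKM in Col-0 kept in WL and 6.84, 5.17 and 5.54 in low R:FR, a log2 fold change of 2.13 (standard error 0.23, adjusted p = 4.26e-07). It went from 1.4, 0.98 and 0.99 FPKM to 4.4, 3.91 and 3.28 in dvl1-1D (log2 fold change 1.70), and from 1.09, 0.97 and 0.79 to 4.06, 5.32 and 5.89 in bsk36 (2.30). In pif47 it went from 0.93, 0.48 and 0.65 FPKM to 2.15, 2.05 and 1.55 (log2 fold change 1.38, adjusted p = 0.000215; 0.79 with a pseudocount of 1, under the minimum fold change). The WL and low R:FR libraries did not overlap in any genotype, and the low R:FR level of pif47 was below that of all other genotypes (log2 difference from Col-0 -1.56, adjusted p = 6.87e-05). The interaction did not pass in pif47 (-0.75, adjusted p = 0.273) but did with a pseudocount of 1 (-0.80, adjusted p = 0.0408). In pif47 the WL level was also lower than in Col-0 (log2 difference -0.82, adjusted p = 0.0486).

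XTH31 and XTH32 form the small group known for xyloglucan hydrolase activity, and both went against most of the family. XTH31 had 59.26, 62.84 and 47.62 FPKM in Col-0 kept in WL and 10.87, 11.13 and 25.66 in low R:FR, a log2 fold change of -1.94 (standard error 0.27, adjusted p = 1.20e-05). In dvl1-1D it went from 57.89, 49.93 and 53.41 FPKM to 33.87, 28.34 and 29.93 (log2 fold change -0.81, adjusted p = 0.0406). In bsk36 it went from 43.79, 38.5 and 40.12 FPKM to 32.62, 17.26 and 14.77 (-1.004, adjusted p = 0.0123), a call that was lost without bsk36 WL replicate 1 (-0.95), bsk36 low R:FR replicate 2 (-0.89) or bsk36 low R:FR replicate 3 (-0.78). It was also lost with a pseudocount of 1 (-0.97) or 0.5 (-0.99), with median ratio scaling (-0.99) and with only the groups compared in the fit (adjusted p = 0.0811). In pif47 it went from 63.53, 66.6 and 49.78 FPKM to 33.69, 28.21 and 22.78 (-1.09, adjusted p = 0.00688; -0.95 without pif47 low R:FR replicate 3). WL and low R:FR did not overlap in any genotype. The low R:FR level was higher in dvl1-1D than in Col-0 (log2 difference 1.06, adjusted p = 0.0162), and this was lost without Col-0 low R:FR replicate 1 (0.85), Col-0 low R:FR replicate 2 (0.87) or dvl1-1D low R:FR replicate 1 (0.99), and with only the groups compared in the fit (adjusted p = 0.142). No interaction passed for XTH31 (adjusted p of 0.115, 0.178 and 0.298 in dvl1-1D, bsk36 and pif47). XTH32 fell by adjusted p in all 4 genotypes, with log2 fold changes of -0.98, -0.39, -0.49 and -0.42 for Col-0, dvl1-1D, bsk36 and pif47, respectively. With either other scaling XTH32 also passed the minimum fold change in Col-0 (-1.03). XTH28 fell by adjusted p in Col-0, bsk36 and pif47 (-0.40, -0.23 and -0.28), XTH30 rose by adjusted p in Col-0 and pif47 (0.44 and 0.50), and XTH27, a member expressed in veins, passed no light contrast.

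The genotypes were next compared within each light. In WL, dvl1-1D differed from Col-0 by the thresholds of the study in 1 member (XTH24, higher), where 0.982% of all tested genes differed in either direction. In bsk36, 3 members were higher (XTH13, XTH24 and XTH26, against 1.1%), and in pif47, 2 were higher (XTH13 and XTH26, against 0.73%). At an adjusted p under 0.05 with no minimum fold change, 3 members were higher and 2 lower in dvl1-1D (4.63% of all tested genes in either direction), 5 higher and 3 lower in bsk36 (18.6%), and 3 higher and 7 lower in pif47 (3.65%). XTH24 and XTH26 were higher and XTH7 and XTH8 were lower by adjusted p in all 3 mutants. The 3 comparisons share the Col-0 libraries in WL, of which replicate 1 had the lowest value of XTH24, XTH13 and 11 of the 13 root markers.

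In low R:FR, 1 member differed between dvl1-1D and Col-0 (XTH31, against 0.87% of all tested genes) and 0 differed between bsk36 and Col-0 (0.638%). For bsk36, limma gave 8 members with an unadjusted p under 0.05 (15.1% of all tested genes had one) and 1 with an adjusted p under 0.05 (XTH32, log2 difference 0.50, where 1.44% of all tested genes passed). In pif47, 5 members were lower than in Col-0 (TCH4, XTH8, XTH15, XTH17 and XTH33, against 2.19%). The summed FPKM of these 5 was 214.6 to 267.0 in Col-0, 195.0 to 219.9 in dvl1-1D, 174.4 to 259.2 in bsk36 and 86.1 to 103.8 in pif47, all in low R:FR. These 5 were picked by the comparison of pif47 with Col-0 in the same libraries. Their lower sum in pif47 than in Col-0 was therefore fixed by the choice and is no further evidence. At an adjusted p under 0.05 with no minimum fold change, 5 members were higher and 3 lower in dvl1-1D (9.4%), and 3 were higher (XTH7, XTH9 and XTH31) and 8 lower in pif47 (13.5%).

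Several members are direct neighbours in the RefSeq gene order. XTH13, XTH25 and TCH4 follow each other on chromosome 5, with XTH12 close by, while XTH24, XTH18 and XTH19 form 1 run on chromosome 4 and XTH23 and XTH14 another. In Col-0 each of these 9 neighbours rose by adjusted p, with log2 fold changes of 0.84 (XTH12), 1.498 (XTH13), 1.22 (XTH25) and 2.30 (TCH4), of 1.57 (XTH24), 0.57 (XTH18) and 1.06 (XTH19), and of 0.52 (XTH23) and 0.90 (XTH14). All 9 belong to XTH12 to XTH26, where 13 of the 15 members rose by adjusted p, so the count is not particular to neighbours. Over all tested genes 36.7% passed in either direction. In the mutants the values within a run differed. TCH4 rose in bsk36 (log2 fold change 1.48), where XTH25 beside it had a value of -0.06 and XTH13 a value of 0.17. In dvl1-1D, XTH24 had a log2 fold change of 0.26, XTH18 rose by 0.55 and XTH19 by 1.63. In pif47 the order within this run was the opposite, with 1.00 for XTH24, 0.72 for XTH18 and 0.33 for XTH19.

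**Figure D4:**
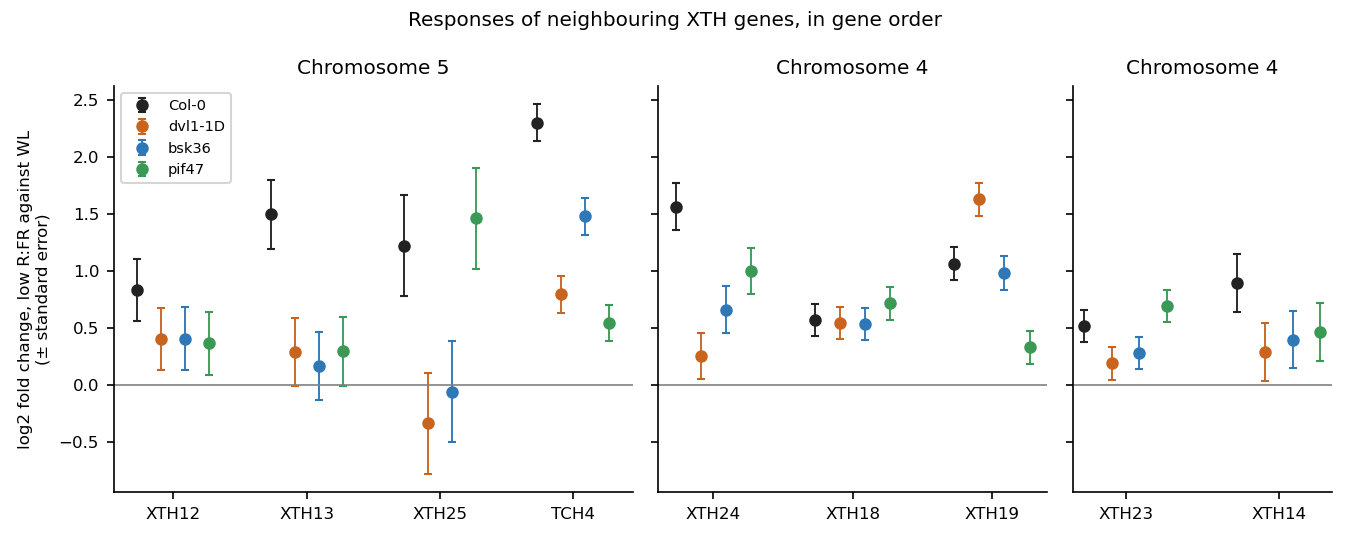
Log2 fold change in low R:FR against WL (vertical axis, ± standard error of the fit) of neighbouring XTH genes, in gene order, in the 4 genotypes with 3 libraries a group. XTH19 had 1.63 in dvl1-1D and 0.33 in pif47, while XTH24 in the same run had 0.26 and 1.00.

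The genes that make and trim xyloglucan were examined as the rest of the pathway. Of 15 synthesis genes (glucan synthases of the CSLC family, xylosyl-, galactosyl- and fucosyltransferases and acetyltransferases), 0 were called in Col-0 by the minimum fold change, while by limma 6 had an unadjusted p under 0.05 and 5 rose by adjusted p. Over all tested genes 45% and 36.7% passed these in either direction. As 0 of the 15 fell by adjusted p, both counts were near or below the background. All 15 nevertheless had a log2 fold change above 0 in Col-0, with a median of 0.20 against 0.06 over all tested genes. CSLC4, the main synthase of the glucan backbone, had 18.29, 22.37 and 19.41 FPKM in Col-0 kept in WL and 35.04, 42.34 and 39.12 in low R:FR (log2 fold change 0.95, standard error 0.08, adjusted p = 1.33e-08). It rose by 1.22 in dvl1-1D, the only call among these 15 genes in any genotype, by 0.92 in bsk36 and by 0.44 in pif47, where the low R:FR values were 23.88, 24.84 and 24.77 FPKM. The interaction passed in pif47 (-0.51, adjusted p = 0.0133), as did that of the galactosyltransferase gene XLT2 (-0.50, adjusted p = 0.00443), which had 20.81 to 24.5 FPKM in Col-0 in low R:FR and 14.89 to 16.57 in pif47. Of the 3 trimming genes, which encode enzymes that remove single sugars from xyloglucan, BGAL10 (a beta-galactosidase) rose in Col-0 from 19.24, 19.77 and 18.24 FPKM to 44.6, 47.05 and 40.22 (log2 fold change 1.20, adjusted p = 2.83e-10). BGAL10 went from 21.57, 20.21 and 23.99 FPKM to 25.98, 26.62 and 26.89 in pif47, an interaction of -0.92 (adjusted p = 2.27e-05), and its interaction in bsk36 was -0.40 (adjusted p = 0.0390). XYL1, an alpha-xylosidase, rose by adjusted p by a similar amount in all 4 genotypes (log2 fold change 0.99, 0.78, 0.85 and 0.87 for Col-0, dvl1-1D, bsk36 and pif47, respectively), and its interaction in pif47 was -0.12 (standard error 0.09, adjusted p = 0.583).

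**Figure D5:**
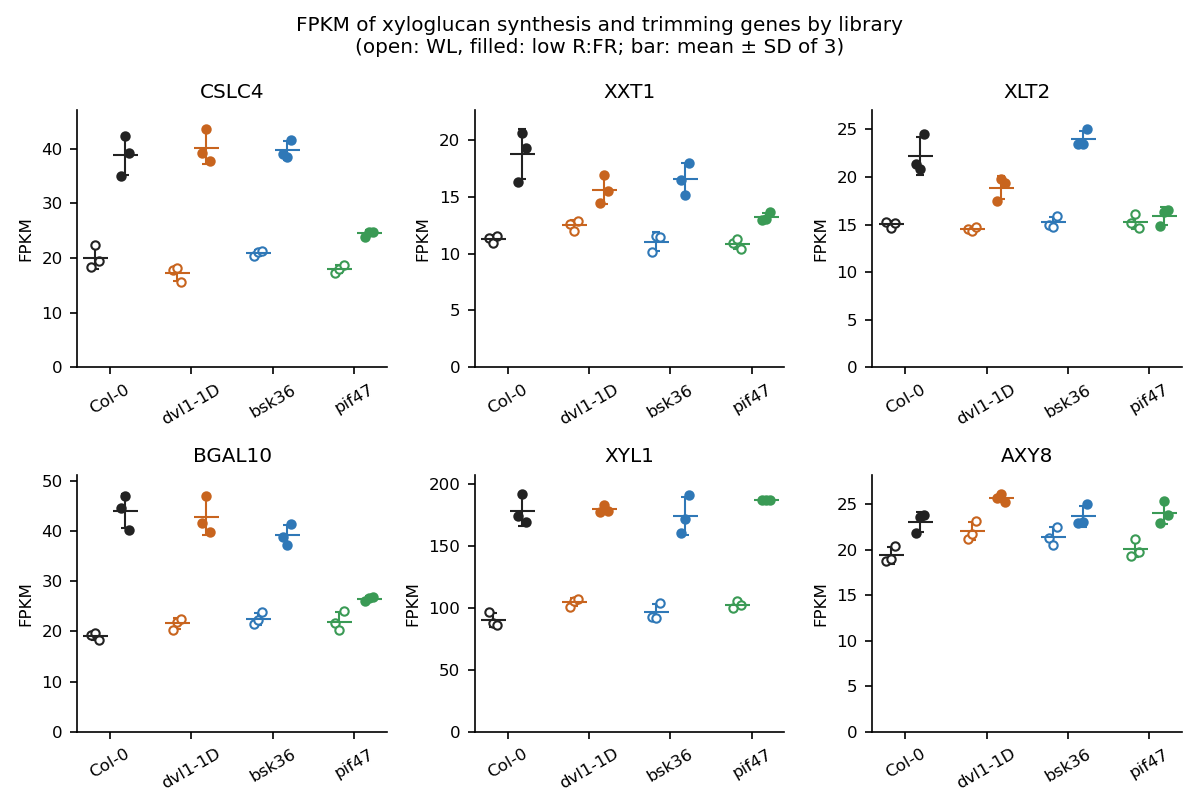
FPKM of 3 xyloglucan synthesis genes (CSLC4, XXT1 and XLT2) and 3 trimming genes (BGAL10, XYL1 and AXY8) in every library (vertical axes start at 0), with WL as open points, low R:FR as filled points and the mean ± SD of 3 libraries as bars. BGAL10 reached 40.22 to 47.05 FPKM in Col-0 in low R:FR and 25.98 to 26.89 in pif47, while XYL1 rose in all 4 genotypes.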

How the data were processed

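Poly(A) RNA of whole seedlings was sequenced in 24 libraries, 3 for each of 8 groups. The authors deposited FPKM values for 32833 genes. Their notes name fastp, cutadapt, HISAT2, DESeq2 and TAIR10, without versions, and the counting tool and its use of strand are not given in the sources used here. The 8 deposited columns of group means were not used. FPKM are not counts, so log2(FPKM + 0.1) was fitted with limma 3.58.1 in R 4.3.3 (trended eBayes, 1 mean per group, all 24 libraries), over the 20682 genes whose FPKM averaged 0.5 or more, with Benjamini-Hochberg adjustment over all of them. The fit was tested on simulated data. Values of single libraries are given for members called in a light contrast or an interaction and for the 5 most abundant members. The members and gene lists were chosen with earlier results of these data known. All 33 members matched a RefSeq table (TAIR10.1), used for names and gene order. Plots were drawn with matplotlib 3.10.9. Alternatives were other pseudocounts (0.5 and 1), filters (a mean FPKM of at least 5, and none), scalings, call rules, a replicate block, only the groups compared, and each library left out in turn.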

Additional observations from a re-analysis of the deposited data

Results flagged for a closer look

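In 13 cases the low R:FR response of a member differed between a mutant and Col-0 by the interaction test (limma, adjusted p under 0.05). In dvl1-1D the interaction was -0.53 for XTH6, 0.62 for XTH7, -1.51 for TCH4, -1.31 for XTH24 and -1.38 for XTH26 on the log2 scale. In bsk36 it was -0.42 for XTH6, 0.85 for XTH7 and -1.28 for XTH26. In pif47 it was 0.90 for XTH7, -0.77 for XTH8, -1.10 for XTH17, -1.75 for TCH4 and -1.29 for XTH26. For TCH4 and XTH24 in dvl1-1D, XTH6 in bsk36, XTH8 in pif47, and XTH7 and XTH26 in each mutant, the level in WL also differed from that of Col-0 by adjusted p.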

How the results depend on the processing

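No change of processing turned the direction of any call named here. With no minimum fold change and an adjusted p under 0.05, the members called were 25 (Col-0), 12 (dvl1-1D), 14 (bsk36) and 16 (pif47) for light, 5, 8 and 10 for dvl1-1D, bsk36 and pif47 against Col-0 in WL, and 8, 1 and 11 in low R:FR. At an unadjusted P of at most 0.01 the interactions numbered 9, 6 and 10, where 7.67%, 8.32% and 6.14% of all tested genes passed. For light in pif47, 2 members were called with a pseudocount of 1 and 3 with a mean FPKM of at least 5. For bsk36 in WL, 1 was called with either pseudocount, with a mean FPKM of at least 5 or with quantile normalization. For pif47 in WL, 0 were called with a pseudocount of 1 or a mean FPKM of at least 5, and 1 with a pseudocount of 0.5, quantile normalization or only the groups compared. With only the groups compared, dvl1-1D against Col-0 in low R:FR had 0, and the bsk36 interaction had 1, as it did with no filter. The stricter filter removes the members with a lower mean by construction, and the other causes were not tested.

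Leaving out 1 library gave 11 to 14 members for light in Col-0, and 5, 5 to 7 and 2 to 5 for dvl1-1D, bsk36 and pif47, where the 2 in pif47 were without low R:FR replicate 2 or 3. The ranges against Col-0 in WL were 1 to 3 (dvl1-1D), 1 to 3 (bsk36) and 2 to 3 (pif47). In low R:FR they were 0 to 1 (dvl1-1D), 0 to 1 (bsk36) and 3 to 6 (pif47), and for the interactions 3 to 8, 1 to 5 and 4 to 8.

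Replicate numbers did not pair the libraries: deviations of same-numbered libraries from their group means correlated by -0.143 to 0.0867. With the replicate block the interaction was called for 2 members in bsk36 (XTH6 was lost) and 4 in pif47 (XTH26 was lost), and no other count moved. FPKM give no read numbers, so the precision of members under 10 FPKM is limited to an unknown extent.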
